A study of Arabidopsis thaliana with 48 samples.

Results

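The 37 genes described here are 29 Aux/IAA genes, IAA1 to IAA20 and IAA26 to IAA34, and 8 GH3 genes, of the 33602 loci in the deposited abundance table. They were chosen by locus identifier from the names of the families and not by measured values, although with earlier results of these data known. The RNA came from Arabidopsis thaliana seedlings aged 18 days, split into shoot and root, that had grown on agarose plates of modified Long Ashton medium. The genotypes were the Col-0 wild type, T-DNA insertion lines in EIL1 (AT2G27050, line SALK_042113) and in EIL3 (AT1G73730, line SALK_089129), and the double mutant of these lines, eil3 eil1. Full sulfate (+S) was 0.75 mM magnesium sulfate, and low sulfate (-S) was 0.015 mM magnesium sulfate with 0.75 mM magnesium chloride, so each -S plate also differed from +S in its chloride. Each of the 16 groups of genotype, sulfate and organ had 3 libraries, described as biological replicates. Both genes encode factors of the EIN3 family: EIL1 acts downstream of ethylene, and EIL3 (SLIM1) regulates genes of sulfur starvation.

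Auxin is read in plant cells by TIR1/AFB receptors, which bind auxin together with an Aux/IAA protein and send that protein to the proteasome. Aux/IAA proteins otherwise hold auxin response factors (ARFs) in check, and because many Aux/IAA genes are themselves targets of ARFs, their transcripts rise when auxin signalling rises. GH3 genes of the group studied here encode enzymes that join auxin to amino acids and so lower its free level, and several of them are also early auxin-induced transcripts. ARFs bind DNA at the letters TGTCTC or TGTCGG, the auxin response elements, and factors of the EIN3 family bind sites with a core such as ATGTA.

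The sequences before the gene starts are shown for IAA19, IAA29 and IAA6, which had the smallest p-values of the members in the eil3 eil1 shoot response, for IAA5, which has both forms of the auxin response element, and for IAA28, the most root-biased of the abundant members. Each is the 300 bases before the annotated start of the gene, read 5′ to 3′ on the strand of the gene from the TAIR10.1 genome with the RefSeq annotation. Capitals mark TGTCTC or TGTCGG, or their reverse complements GAGACA and CCGACA. The windows are chr3:5263701-5264000 (plus strand) for IAA19, chr1:5366498-5366797 (minus strand) for IAA5, chr1:19673653-19673952 (minus strand) for IAA6, chr4:15583032-15583331 (plus strand) for IAA29 and chr5:9032904-9033203 (plus strand) for IAA28.
IAA19: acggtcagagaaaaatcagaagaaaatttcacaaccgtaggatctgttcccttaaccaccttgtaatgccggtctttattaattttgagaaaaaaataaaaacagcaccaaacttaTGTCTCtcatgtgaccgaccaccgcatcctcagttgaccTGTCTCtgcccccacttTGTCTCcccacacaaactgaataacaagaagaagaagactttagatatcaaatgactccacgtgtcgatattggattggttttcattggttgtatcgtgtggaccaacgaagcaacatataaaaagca
IAA5: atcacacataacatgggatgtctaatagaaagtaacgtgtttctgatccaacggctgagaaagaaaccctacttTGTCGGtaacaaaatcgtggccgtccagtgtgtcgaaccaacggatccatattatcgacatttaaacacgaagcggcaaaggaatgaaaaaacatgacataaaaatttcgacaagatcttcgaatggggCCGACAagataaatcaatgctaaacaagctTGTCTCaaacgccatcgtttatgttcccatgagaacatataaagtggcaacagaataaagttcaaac
IAA6: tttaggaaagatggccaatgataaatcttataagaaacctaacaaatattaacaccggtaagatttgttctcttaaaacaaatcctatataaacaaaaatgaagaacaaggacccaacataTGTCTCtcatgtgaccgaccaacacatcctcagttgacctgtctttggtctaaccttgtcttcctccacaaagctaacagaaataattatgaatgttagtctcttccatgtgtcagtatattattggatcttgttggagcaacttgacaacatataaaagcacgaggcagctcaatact
IAA29: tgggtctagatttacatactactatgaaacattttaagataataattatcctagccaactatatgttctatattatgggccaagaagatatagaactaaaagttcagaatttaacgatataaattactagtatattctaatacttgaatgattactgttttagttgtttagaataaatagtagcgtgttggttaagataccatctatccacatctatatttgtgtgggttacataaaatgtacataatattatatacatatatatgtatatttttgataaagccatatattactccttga
IAA28: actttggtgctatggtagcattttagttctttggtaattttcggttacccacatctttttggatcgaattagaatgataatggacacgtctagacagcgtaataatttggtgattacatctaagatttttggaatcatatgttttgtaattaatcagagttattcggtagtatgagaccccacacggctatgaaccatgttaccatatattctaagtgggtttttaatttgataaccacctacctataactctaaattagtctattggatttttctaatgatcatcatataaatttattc
The IAA19 window holds TGTCTC at 3 places, starting 184, 145 and 128 bases before the gene start. The IAA5 window holds TGTCGG at 2 places, 1 on each strand, and TGTCTC at 1. IAA6 holds TGTCTC once, and the windows of IAA29 and IAA28 hold neither form. Searched on both strands in windows of the same length, TGTCTC or TGTCGG was present for 14 of 29 Aux/IAA genes (48.3%) and 3 of 8 GH3 genes (37.5%), against 17.3% of all 27443 protein-coding genes. ATGTA was present for 20 of 29 Aux/IAA genes (69.0%) and 2 of 8 GH3 genes (25.0%), against 58.9% of all genes. A match of letters is a description of the sequence and not a binding site.

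Library totals were 27029056 to 37809176 rounded estimated counts in shoots and 26615731 to 38269932 in roots. Green-tissue markers (10 genes of light harvesting, the photosystems and rubisco) summed to 18980 to 72350 CPM in shoot libraries and to 461 to 1910 CPM in root libraries, and 7 root markers summed to 339 to 625 CPM in shoots and 6498 to 10140 CPM in roots, so both organs had the markers of their labels. None of these markers was at 0 on average in any group. The labels of the mutants were less clear in the transcripts. EIL1 stood at 102 ± 3.57 CPM in Col-0 shoots at +S and 45.5 ± 2.78 in shoots labelled eil3 eil1, but at 83.98 ± 5.06 in those labelled eil1. EIL3 stood at 17.02 ± 0.954 CPM in Col-0 shoots at +S, 17.2 ± 2.81 in those labelled eil3 and 29.8 ± 1.38 in those labelled eil3 eil1. EIL3 levels in +S roots were 23.5 ± 1.1 CPM for Col-0 and 15.8 ± 2.08 for eil3. The eil3 label thus has no lower EIL3 level behind it in shoots, and every genotype below is given as labelled.

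Levels are given as CPM (counts scaled to library size with TMM), as mean ± SD of 3 libraries, and levels of different genes are compared in TPM, which take the length of the target into account. A gene is said to have risen or fallen, or to be higher or lower between groups, where the p of edgeR's quasi-likelihood F test, adjusted over all loci by the method of Benjamini and Hochberg, was under 0.05. Changes are log2 fold changes ± SE. In comparisons where edgeR called no member, the members with an unadjusted p under 0.05 are counted too. The share of all loci at that level was not counted, so these counts are no result about the members. In shoots 32 of the 37 members passed the filter on low counts, and in roots 34 did. GH3.4 was at 0 counts in 24 of 24 shoot libraries and in 22 of 24 root libraries. IAA15 did not exceed 0.0591 CPM in any library of either organ, and neither gene passed the filter in any fit that used it. IAA31, IAA33 and GH3.1 were too low for the test in shoots, and IAA34 in roots.

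In Col-0 at +S the Aux/IAA genes together gave 1202 TPM in shoots and 1535 TPM in roots, and the GH3 genes 97.6 and 142 TPM. TPM are shares of each library without TMM scaling, so they order genes within an organ and do not compare organs. IAA16, for example, had more TPM in roots than in shoots but was lower in roots with TMM (-0.52 ± 0.108). In shoots the highest members were IAA2 with 248 ± 34.5 TPM, IAA16 with 199 ± 28, IAA7 with 139 ± 3.34, IAA8 with 113 ± 1.49 and IAA9 with 108 ± 10.6. In that order the ranges of mean ± SD overlapped for IAA2 and IAA16 and for IAA8 and IAA9. In roots the order began with IAA9 at 256.1 ± 24.1 TPM, IAA16 at 233 ± 26.2, IAA2 at 199.6 ± 44.7 and IAA28 at 162 ± 8.76, neighbours whose ranges of mean ± SD overlapped, followed by IAA8 at 123 ± 9.99. Among the GH3 genes GH3.6 was highest in shoots with 40.1 ± 4.52 TPM and GH3.17, whose enzyme makes auxin-glutamate, in roots with 98.3 ± 10.6 TPM. The order depends on the length used, since with CPM per kb of spliced length IAA7 ranked 1, IAA16 ranked 2 and IAA2 ranked 3 in shoots, and IAA2 ranked 5 in roots.

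**Figure D1:**
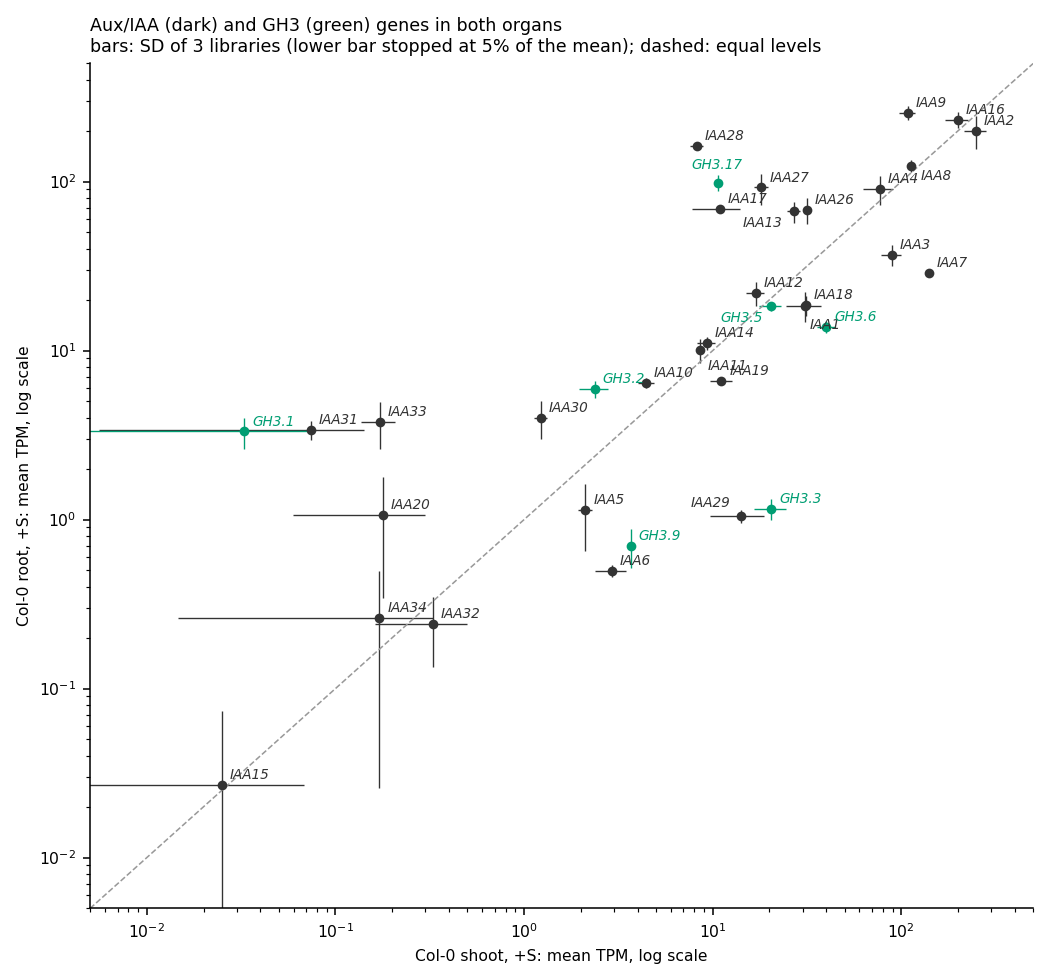
Mean TPM of each gene in Col-0 shoots (horizontal axis) and Col-0 roots (vertical axis) at +S, both on log scales, with the SD of 3 libraries as bars. IAA28 and GH3.17 lie far above the dashed line of equal TPM, and IAA29, GH3.3 and IAA6 far below it. GH3.1, IAA31 and IAA33 lie further above the line, with shoot values near 0. GH3.4 is not drawn because all these libraries were at 0. TPM are not TMM-scaled, so the line does not mark equal levels by the organ test.

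Roots and shoots of Col-0 at +S differed for nearly all members tested, as for most loci. Of 33 members in the organ fit 13 were higher in roots and 19 lower, where 76.4% of all loci tested were called in either direction. GH3.1 (5.80 ± 0.523), IAA31 (4.59 ± 0.432), IAA33 (3.66 ± 0.500), IAA28 (3.56 ± 0.121) and GH3.17 (2.46 ± 0.102) were the most root-biased. GH3.1, IAA31 and IAA33 passed the filter of this fit through their root libraries. In Col-0 shoots at +S they had 0.033, 0.074 and 0.17 TPM. Their direction thus followed from the filter, and the size of their differences rests on values near 0 in shoots. GH3.3 (-4.88 ± 0.197), IAA29 (-4.49 ± 0.269), IAA6 (-3.29 ± 0.372), GH3.9 (-3.16 ± 0.311) and IAA7 (-3.01 ± 0.0913) were the most shoot-biased. The split depended on scaling, since scaling by total counts alone moved the median of all loci by 0.549 on the log2 scale and gave 14 higher and 13 lower. IAA4, IAA11, IAA12, IAA14 and IAA16, each lower in roots with TMM, had a sign above 0 with total counts and were not called, and IAA8 lost its call.

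In shoots at full sulfate, a set of Aux/IAA genes stood several-fold higher in the libraries labelled eil3 and eil3 eil1 than in Col-0. The set included IAA19, which acts in the bending and elongation of hypocotyls, IAA29, which is known for its induction by shade and warmth, and IAA5, IAA6 and IAA30. In eil3 eil1-labelled shoots 14 of the 32 members tested were higher than Col-0 and 1 was lower, where 7.54% of all loci were called, 2.84% of all loci higher. In eil3-labelled shoots 8 were higher and 1 lower, where 7.13% of all loci were called, 2.47% of all loci higher. In eil1-labelled shoots none was called by edgeR, where 1.26% of all loci were, and 9 members had an unadjusted p under 0.05. DESeq2 called 3 members lower (IAA7, GH3.3 and GH3.6), and over all loci it called 200 higher and 489 lower.

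IAA19 (AT3G15540, chr3:5264001-5265695 on the plus strand) had 9.99, 13.8 and 13.1 CPM in the 3 Col-0 shoot libraries at +S, 15.6, 15.6 and 15.1 in those labelled eil1, 43.5, 25.1 and 37.6 in those labelled eil3 and 36.8, 50.4 and 52.5 in those labelled eil3 eil1. Every eil3- and eil3 eil1-labelled library was above every Col-0 and eil1-labelled library. The difference from Col-0 was 1.53 ± 0.174 in eil3 (edgeR adjusted p = 4.64e-05) and 1.92 ± 0.175 in eil3 eil1 (edgeR adjusted p = 8.80e-07).

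IAA29 (AT4G32280, chr4:15583332-15584903 on the plus strand) had 8.16, 13.3 and 16.5 CPM in Col-0 at +S, 16.9, 17.5 and 26.1 in eil1, 49.5, 46.7 and 50.4 in eil3 and 44.4, 67.2 and 73.5 in eil3 eil1. The 3 eil1-labelled values were all above the highest Col-0 value, and those of eil3 and eil3 eil1 were higher still. The differences from Col-0 were 1.96 ± 0.245 in eil3 (edgeR adjusted p = 0.000129) and 2.30 ± 0.246 in eil3 eil1 (edgeR adjusted p = 8.46e-06).

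IAA6 (AT1G52830, chr1:19672476-19673652 on the minus strand), a close relative of IAA19, was much lower, with 1.72, 2.61 and 1.92 CPM in Col-0 at +S, 3.13, 2.92 and 3.68 in eil1, 6.10, 5.62 and 5.55 in eil3 and 6.10, 10.3 and 12.6 in eil3 eil1. No eil3- or eil3 eil1-labelled library fell to the level of a Col-0 library. The differences from Col-0 were 1.47 ± 0.240 and 2.21 ± 0.240 (edgeR adjusted p = 0.00138 and 9.22e-06).

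The other members higher at +S in both lines were IAA1 (1.18 ± 0.155 in eil3 and 1.21 ± 0.155 in eil3 eil1), IAA2 (0.58 ± 0.129 and 0.67 ± 0.129), IAA4 (0.50 ± 0.136 and 0.64 ± 0.136), IAA5 (2.04 ± 0.316 and 1.99 ± 0.315) and IAA30 (1.38 ± 0.259 and 1.48 ± 0.257), the last a member without the degron through which TIR1 binds. In eil3 eil1 the tests were also passed by IAA3 (0.65 ± 0.134), a repressor known as SHY2 that acts in seedling growth in the light and in the root meristem, by IAA20 and IAA32, by the conjugating enzymes GH3.2 (0.97 ± 0.221) and GH3.3 (0.76 ± 0.201), and by GH3.5 (0.82 ± 0.139), which acts on auxin and on salicylate. IAA20 rested on 1, 6 and 4 counts in Col-0 against 13, 21 and 24, and IAA32 on 6, 7 and 11 against 39, 46 and 37. IAA18 was the member that was lower, -0.41 ± 0.0775 in eil3 and -0.26 ± 0.0771 in eil3 eil1. Without single libraries, the calls of IAA2 and IAA4 in eil3, and of IAA18, IAA20, IAA32 and GH3.3 in eil3 eil1, were lost, and the counts of called members were 7 to 9 and 12 to 15. In the eil3 line IAA2 was lost without Col-0 +S library 1, IAA4 without Col-0 +S library 1 or 2 or eil3 +S library 3, and in eil3 eil1 IAA32 was lost without Col-0 +S library 1, IAA20 without that library or eil3 eil1 +S library 2 or 3. GH3.3 was lost without Col-0 +S library 2 or 3 or eil3 eil1 +S library 2 or 3, and IAA18 without any 1 of the 3 Col-0 libraries, without eil3 eil1 +S library 1 or 2, with total-count scaling and with no count filter. The 2 comparisons share their Col-0 libraries.

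**Figure D2:**
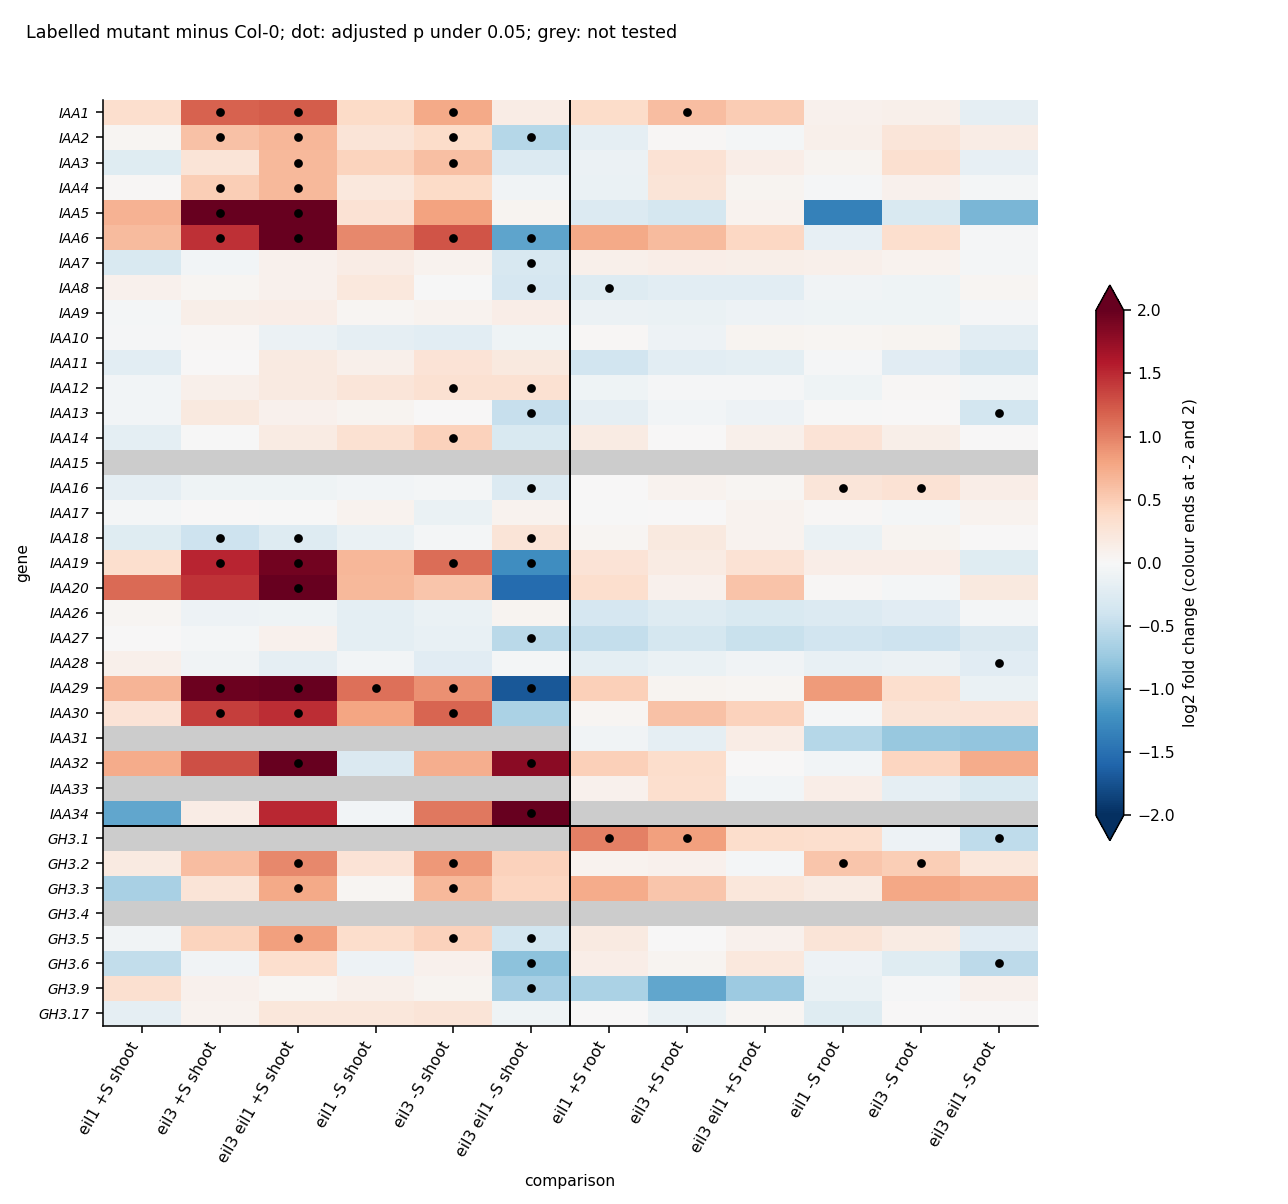
Log2 fold change of each gene (rows) in each labelled mutant against Col-0 (columns, shoots left of the line and roots right of it), red for higher and blue for lower, with the colour ending at -2 and 2. Dots mark an edgeR adjusted p under 0.05 and grey marks genes not tested. In shoots at +S the dots of eil3 and eil3 eil1 are nearly all red, and at -S the dots of eil3 are red while most of those of eil3 eil1 are blue.

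In Col-0 shoots at low sulfate 6 members rose and 6 fell, 37.5% of the 32 tested, where 34.9% of all loci were called. With scaling by total counts 6 rose and 4 fell, and that scaling moved the median of all loci by 0.124 on the log2 scale. IAA7 and IAA8 had the smallest p-values. IAA7 (AT3G23050, chr3:8194606-8197161 on the plus strand), known as AXR2 from gain-of-function mutants that are resistant to auxin, had 229.7, 249 and 250.4 CPM in Col-0 at +S and 154, 176 and 156 at -S. The groups did not overlap, and the change was -0.58 ± 0.0859 (edgeR adjusted p = 2.55e-05). IAA8 (AT2G22670, chr2:9636346-9638761 on the plus strand), which acts in lateral root formation, had 178, 196 and 188 CPM at +S and 118, 137 and 118 at -S, again without overlap, a change of -0.59 ± 0.0832 (edgeR adjusted p = 1.46e-05).

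IAA3 (AT1G04240, chr1:1128149-1129689 on the minus strand) had 64.7, 86.8 and 83.3 CPM in Col-0 at +S and 44.4, 57.2 and 51.7 at -S, without overlap and with a change of -0.62 ± 0.135 (edgeR adjusted p = 0.00130). Its level is uncertain, because its locus overlaps AT1G04230 on the opposite strand by 640 bases and 41.4% of its 31-base words also occur in other genes. IAA14 (AT4G14550, chr4:8347822-8350263 on the minus strand), known as SOLITARY-ROOT for its part in lateral root initiation, had 12.02, 16.2 and 14.4 CPM at +S and 8.16, 9.79 and 8.80 at -S, a change of -0.67 ± 0.128 (edgeR adjusted p = 0.000355). The other members that fell were IAA12 (-0.27 ± 0.0756), known as BODENLOS from its part in the embryonic root, and GH3.9 (-0.44 ± 0.143). IAA1 (0.56 ± 0.155), IAA10 (0.40 ± 0.105), IAA26 (0.38 ± 0.0930), IAA27 (0.24 ± 0.0884), IAA28 (0.46 ± 0.147) and GH3.5 (0.56 ± 0.139) rose. IAA19, IAA29 and IAA6 were not called in Col-0, with changes of -0.29 ± 0.178, 0.46 ± 0.245 and -0.09 ± 0.252. Of these calls IAA12 and GH3.9 were lost with total-count scaling and without single libraries (IAA12 without -S library 3 or +S library 1, GH3.9 without -S library 1 or 3 or +S library 2). IAA1 was lost without +S library 1, and IAA27 with no count filter and without any 1 of 5 libraries (all 3 of -S, and 1 and 3 of +S).

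In eil1-labelled shoots 6 members rose and 2 fell, 25.0% of those tested, where 27.3% of all loci were called. GH3.5 (0.97 ± 0.139), IAA29 (0.88 ± 0.236), GH3.3 (0.78 ± 0.204), IAA1 (0.61 ± 0.153), GH3.17 (0.50 ± 0.118) and IAA11 (0.47 ± 0.114) rose, and IAA8 (-0.46 ± 0.0829) and GH3.9 (-0.66 ± 0.141) fell. GH3.3 was lost without eil1 -S library 1. In eil3-labelled shoots 5 rose and 6 fell, 34.4% of those tested, where 34.6% of all loci were called, but 10 rose and 4 fell with scaling by total counts, which moved the median of all loci by 0.226. IAA8 (-0.65 ± 0.0832), IAA7 (-0.45 ± 0.0858) and IAA19 (-0.70 ± 0.168) had the smallest p-values among those that fell, and GH3.5 (0.57 ± 0.137) among those that rose. IAA5 (-1.03 ± 0.295), IAA17 (-0.64 ± 0.231), known as AXR3, and GH3.9 (-0.46 ± 0.142) also fell, and IAA11, IAA18, IAA26 and GH3.17 rose by 0.27 to 0.43. Of these, IAA5 was lost without eil3 -S library 2 or +S library 3, IAA17 without any 1 of 4 libraries and with total counts, IAA18 without +S library 1, GH3.9 without -S library 3 or +S library 2 and with total counts, and GH3.17 without any 1 of 4 libraries and with DESeq2, RLE size factors or no count filter.

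The response in eil3 eil1-labelled shoots was of another size. Of 32 members tested 19 fell and 4 rose, 71.9% in all, where 60.8% of all loci were called, 28.3% of all loci lower and 32.5% higher. The median change of the members tested was -0.51, beside 0.02 over all loci. Leaving out single libraries gave 23 to 24 called members, and scaling by total counts, which moved the median of all loci by 0.170, gave 17 lower and 5 higher. All 10 green-tissue markers fell in both genotypes. In the same libraries they summed to 51710 to 61030 CPM at +S and 18980 to 20060 CPM at -S, against 57510 to 70220 and 34930 to 41490 in Col-0. Of 7 root markers 4 fell and none rose in eil3 eil1 (median -1.90), with sums of 351 to 495 CPM at +S and 510 to 541 at -S that include PYK10, which was not called (0.28 ± 0.153), and none of the 7 was called in Col-0. Fewer cells of a type and less RNA per cell cannot be told apart in such bulk samples, and the part of these shifts in the members' changes was not tested.

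IAA19 had 36.8, 50.4 and 52.5 CPM at +S and 3.73, 4.18 and 4.81 at -S in eil3 eil1, so that every -S library was below every Col-0 library of either treatment. The change was -3.45 ± 0.190 (edgeR adjusted p = 2.93e-11). In Col-0 the -S libraries had 9.33, 11.04 and 9.71 CPM, in eil1 17.7, 13.2 and 16.9 and in eil3 24.2, 20.1 and 21.1. The difference between the responses of eil3 eil1 and Col-0 was -3.16 ± 0.257 (edgeR adjusted p = 2.98e-08).

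IAA29 had 3.70, 4.74 and 7.47 CPM at -S in eil3 eil1, 17.3, 17.1 and 17.4 in Col-0, 32.8, 39.7 and 38.8 in eil1 and 40.4, 29.4 and 27.3 in eil3. The double mutant libraries were below all others of that treatment, and those of eil1 and eil3 were above Col-0. The change was -3.53 ± 0.263 in eil3 eil1 (edgeR adjusted p = 6.58e-10), and it differed from the response of Col-0 by -3.99 ± 0.356 (edgeR adjusted p = 7.18e-08).

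IAA6 had 0.949, 0.919 and 0.951 CPM at -S in eil3 eil1, 1.34, 2.63 and 1.93 in Col-0, 3.67, 4.13 and 3.61 in eil1 and 5.58, 3.84 and 4.64 in eil3. The 3 double mutant libraries were nearly equal and lower than all others. The change in eil3 eil1 was -3.36 ± 0.257 (edgeR adjusted p = 9.32e-10). The Col-0 change of -0.09 ± 0.252 was not called, and the interaction was -3.27 ± 0.357 (edgeR adjusted p = 6.58e-07).

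IAA3 had 95.7, 131 and 141 CPM at +S and 44.4, 37.6 and 44.3 at -S in eil3 eil1, a change of -1.54 ± 0.137 (edgeR adjusted p = 6.82e-09). GH3.6 (AT5G54510, chr5:22130964-22133688 on the minus strand), known as DFL1 from a dominant mutant with short hypocotyls, had 72.1, 97.6 and 108 CPM at +S and 35.1, 39.1 and 36.8 at -S, a change of -1.32 ± 0.125 (edgeR adjusted p = 1.61e-08). In Col-0 GH3.6 had 66.9, 85.7 and 67.96 CPM at +S and 65.2, 68.7 and 62.7 at -S, groups that overlapped. The GH3.6 interaction was -1.15 ± 0.175 (edgeR adjusted p = 3.13e-05).

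IAA7 had 234, 261 and 277 CPM at +S and 133, 123 and 134 at -S in eil3 eil1, and IAA8 had 203, 197 and 199 and 99.2, 103 and 93.7. These genes were high at +S in all genotypes and lower at -S in eil3 eil1 than in Col-0, with changes of -0.99 ± 0.0864 for IAA7 (edgeR adjusted p = 5.45e-09) and -1.02 ± 0.0837 for IAA8 (edgeR adjusted p = 2.36e-09). IAA14 had 12.97, 17.9 and 16.95 CPM at +S and 7.18, 7.98 and 6.50 at -S, a change of -1.14 ± 0.128 (edgeR adjusted p = 1.65e-07).

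Of the other members, IAA20 (13, 21 and 24 counts at +S and 3, 0 and 1 at -S), IAA30 (-2.28 ± 0.269), IAA5 (-1.71 ± 0.305), GH3.9 (-1.16 ± 0.145) and IAA2 (-1.13 ± 0.130) fell most. IAA4, GH3.5, IAA13, IAA1, IAA16 and IAA27 fell by 0.38 to 0.75 on the log2 scale, and of these IAA1 and IAA27 were not called with total-count scaling. The members that rose were IAA28 (0.60 ± 0.147), IAA26 (0.52 ± 0.0928), IAA10 (0.43 ± 0.104) and IAA18 (0.41 ± 0.0768), and IAA9, among the most abundant members, was at 236 ± 8.85 and 230.0 ± 5.19 CPM and was not called in any response. Reads of IAA10, IAA13, IAA32, IAA34 and GH3.9 are uncertain in the same way as those of IAA3, with 34.4%, 37.9%, 38%, 9.05% and 12.7% of their 31-base words in other genes, mainly overlapping ones.

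**Figure D3:**
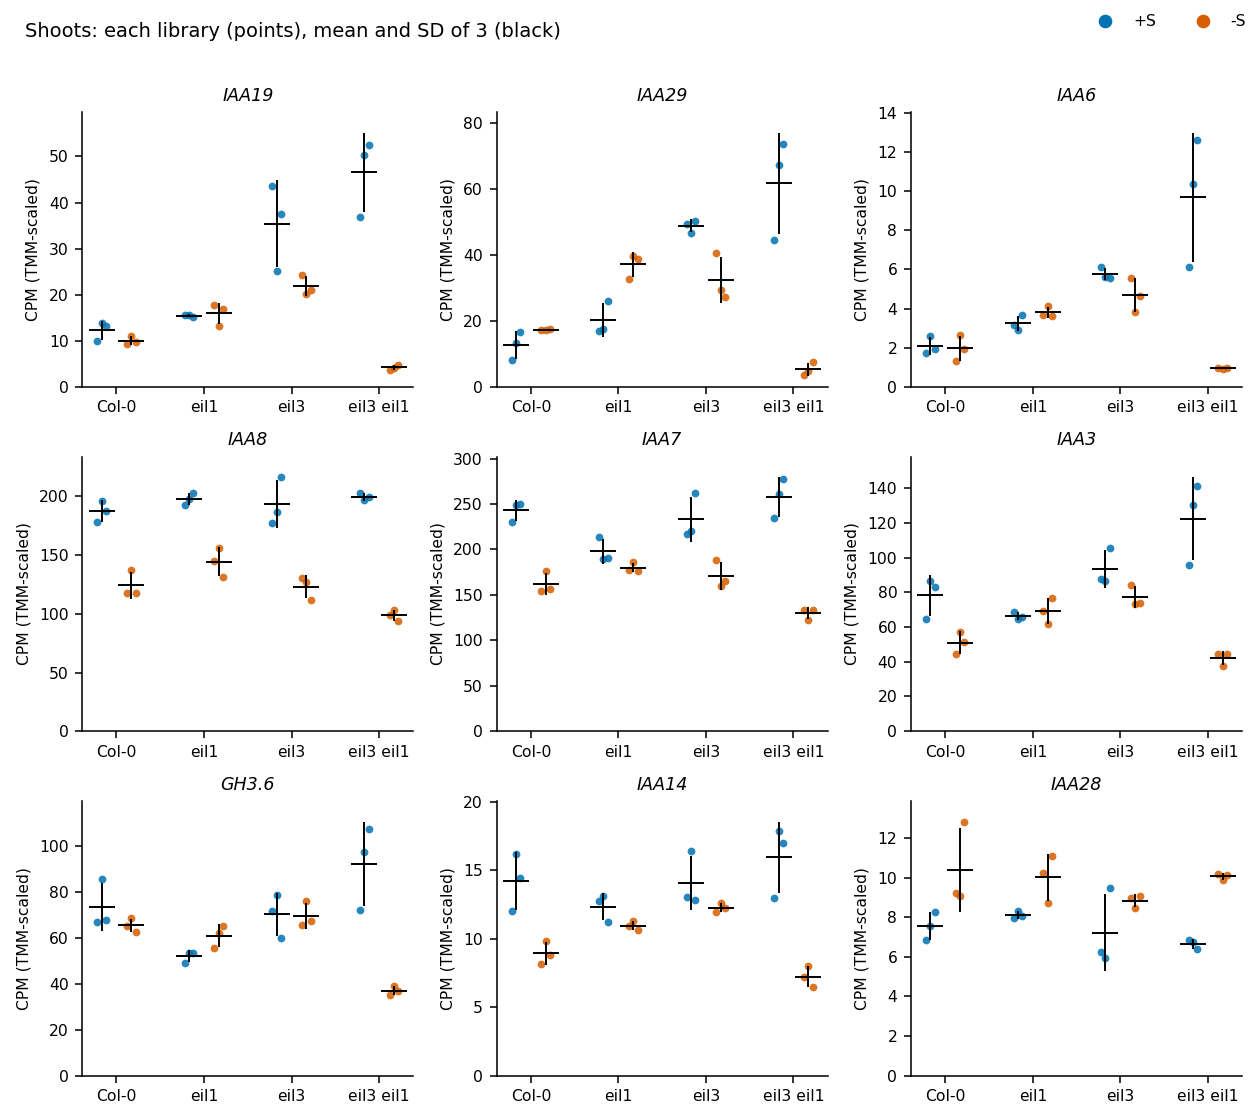
CPM in each shoot library at +S (blue) and -S (orange) for 9 genes, on linear axes from 0, with the mean and SD of 3 in black. IAA19, IAA29 and IAA6 are highest in eil3 eil1 at +S and lowest in eil3 eil1 at -S, while IAA7 and IAA8 start from similar levels in all genotypes.

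Tested directly, the response to low sulfate of eil3 eil1-labelled shoots differed from that of Col-0 for 19 of 32 members, 18 more negative and 1 (IAA18, 0.51 ± 0.109) more positive, where 36.9% of all loci were called, 16.9% of all loci more negative. Leaving out single libraries gave 18 to 19, and the 1 call that depended on settings was IAA14 (-0.47 ± 0.180, edgeR adjusted p = 0.0470), lost with total-count scaling, with no count filter and without any 1 of 8 of the 12 libraries. For eil1 no member was called by edgeR, where 0.023% of all loci were, and 8 had an unadjusted p under 0.05. DESeq2 called 0 members, and over all loci it called 38 more positive and 74 more negative. For eil3 no member was called by edgeR, where 1.78% of all loci were, and 4 had an unadjusted p under 0.05. DESeq2 called 1 member, IAA29, and over all loci it called 341 more positive and 466 more negative. These interactions share the Col-0 libraries.

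At -S itself, without use of the +S libraries, 12 of 32 members were lower in eil3 eil1-labelled shoots than in Col-0 and 4 were higher. These were 50.0% of the members tested, where 53.6% of all loci were called, 5668 lower and 5952 higher of 21697. With total-count scaling, which moved the median of all loci by 0.12, 10 were lower and 8 higher, and IAA16 and GH3.5 were no longer called. All 10 green-tissue markers were lower in eil3 eil1 (median -1.20), and of the 7 root markers 4 were lower and 1 higher. Among the calls lost without a library were IAA16 (Col-0 library 2, eil3 eil1 library 2 or 3), GH3.5 (Col-0 library 3, eil3 eil1 library 1 or 2), IAA18 (eil3 eil1 library 3) and IAA34 (Col-0 library 1, eil3 eil1 library 3). IAA29 (-1.69 ± 0.258), IAA19 (-1.24 ± 0.189), IAA6 (-1.05 ± 0.266) and GH3.6 (-0.82 ± 0.125) were the most reduced, and IAA12 (0.30 ± 0.0752), IAA18 (0.26 ± 0.0766), IAA32 and IAA34 were higher, the last on 0, 1 and 2 against 12, 4 and 16 counts. In eil3-labelled shoots at -S 12 members were higher than Col-0 and none was lower, where 17.5% of all loci were called, 8.85% of all loci higher. IAA6 (1.26 ± 0.241), IAA30 (1.16 ± 0.261), IAA19 (1.12 ± 0.175) and IAA29 (0.91 ± 0.238) led that group, and the count was 7 without Col-0 -S library 1 and 17 with total-count scaling. In the same comparison 8 of the 10 green-tissue markers were lower in eil3 (median -0.39), with sums of 24330 to 34430 CPM, and none of the 7 root markers was called. The part of these markers in either comparison was not tested. The calls of IAA2, IAA14, GH3.2, GH3.3 and GH3.5 were among those lost without Col-0 -S library 1, and that of IAA29 was lost without eil3 -S library 1. IAA2 was also lost with RLE size factors and without Col-0 library 2 or 3 or eil3 library 1 or 3. IAA14, GH3.3 and GH3.5 were also lost without eil3 library 2 or 3, and GH3.2 without eil3 library 2. Without Col-0 library 3 IAA14 was lost, and without Col-0 library 2 GH3.3 and GH3.5 were. Leaving out single libraries gave 7 to 10 called members. In eil1-labelled shoots at -S 1 member was higher, IAA29 (1.104 ± 0.238, edgeR adjusted p = 0.0385), where 0.53% of all loci were called, a call that needed each of the 3 Col-0 libraries and eil1 libraries 1 and 2. DESeq2 also called IAA6 and IAA19 there, and over all loci it called 161 higher and 381 lower.

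**Figure D4:**
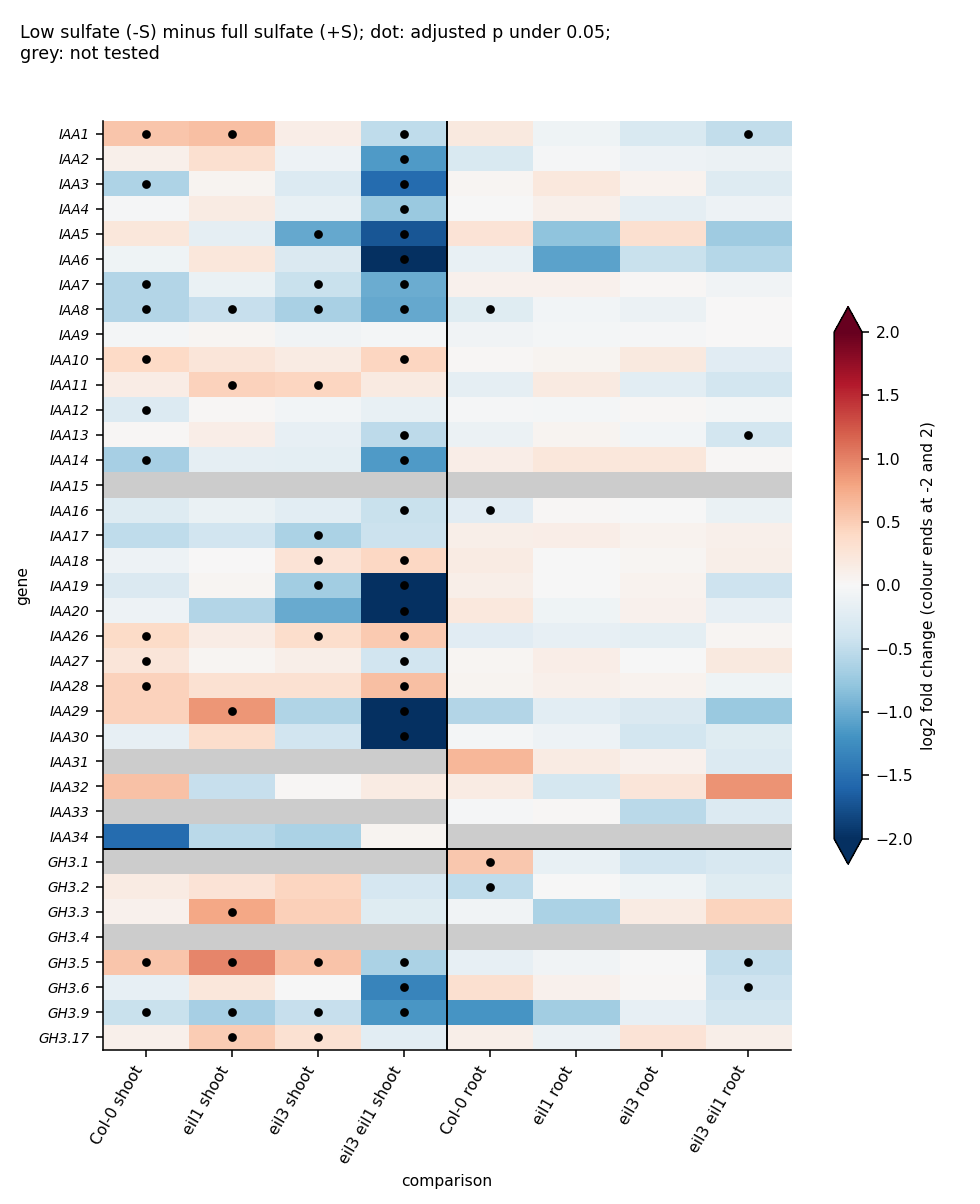
Log2 fold change of each gene (rows) between -S and +S in each genotype (columns, shoots left of the line and roots right of it), red for higher at -S and blue for lower, with the colour ending at -2 and 2. Dots mark an edgeR adjusted p under 0.05 and grey marks genes not tested. The eil3 eil1 shoot column holds 19 of the blue dots, and the root columns hold 8 dots in all.

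In roots few members changed. In Col-0 roots 3 members fell at -S and 1 rose, of 34 tested, where 9.03% of all loci were called. IAA8 had 161, 169.5 and 168 CPM at +S and 138, 144 and 139 at -S, without overlap, a change of -0.24 ± 0.0557 (edgeR adjusted p = 0.00600). In the other genotypes IAA8 was between 121 and 149 CPM in every library, below all 3 Col-0 +S libraries. IAA16 (AT3G04730, chr3:1288155-1290891 on the minus strand), an abundant repressor, had 240.1, 268 and 267 CPM at +S and 222, 227 and 216 at -S, also without overlap, a change of -0.22 ± 0.0615 (edgeR adjusted p = 0.0252).

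Among the conjugating enzymes, GH3.2 (AT4G37390, chr4:17579618-17582022 on the plus strand), known as YDK1 from a dwarf gain-of-function line, fell in Col-0 roots from 9.62, 7.29 and 7.30 CPM to 6.35, 4.85 and 5.89, a change of -0.50 ± 0.130 (edgeR adjusted p = 0.0151). GH3.1 (AT2G14960, chr2:6451319-6453797 on the minus strand) went the other way, from 5.67, 3.41 and 4.08 CPM to 6.84, 5.37 and 6.90, with 1 +S library above 1 -S library and a change of 0.53 ± 0.162 (edgeR adjusted p = 0.0406). IAA8 kept its call in all alternatives tried. IAA16 lost its call without -S library 1 or 3 or +S library 2 or 3 and with total counts, GH3.1 without the same 4 libraries and with a replicate block, and GH3.2 without -S library 2 or +S library 1. The number of called members was 2 without -S library 1, +S library 2 or +S library 3, and total-count scaling gave 2 higher and 2 lower.

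In eil3 eil1-labelled roots 4 members fell and none rose, where 3.89% of all loci were called. GH3.6 had 21.97, 25.1 and 25.04 CPM at +S and 16.99, 19.1 and 17.8 at -S, without overlap (-0.42 ± 0.105, edgeR adjusted p = 0.0236). GH3.5 (AT4G27260, chr4:13653579-13656285 on the plus strand) had 27.4, 27.5 and 32.3 and 17.1, 22.8 and 22.7 CPM (-0.48 ± 0.119, edgeR adjusted p = 0.0235). IAA1 (AT4G14560, chr4:8360996-8362033 on the plus strand), known as AXR5, had 10.3, 11.9 and 12.2 and 7.58, 8.17 and 8.67 CPM (-0.49 ± 0.129, edgeR adjusted p = 0.0331).

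IAA13 (AT2G33310, chr2:14113025-14116089 on the minus strand), a close relative of IAA12, had 54.9, 53.1 and 62.2 and 38.99, 42.7 and 49.9 CPM (-0.37 ± 0.0983, edgeR adjusted p = 0.0343). In all 4 genes each -S library was below each +S library. No member was called without -S library 1 or without +S library 3 of eil3 eil1, and 2 without -S library 3 or +S library 2. IAA1 and IAA13 lost their calls without -S library 2, and IAA13 without +S library 1. Leaving out single libraries thus gave 0 to 3 called members. In eil1-labelled roots no member was called by edgeR or DESeq2, where 1.92% of all loci were called by edgeR, and 2 had an unadjusted p under 0.05. In eil3-labelled roots no member was called by edgeR or DESeq2, where 1.06% of all loci were called by edgeR, and 4 had an unadjusted p under 0.05.

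The responses of eil3 eil1-labelled and Col-0 roots differed by edgeR for 3 of 34 members, all more negative in eil3 eil1. By that test 3.83% of all loci were called. DESeq2 called the same 3 and also IAA8, more positive in eil3 eil1 (0.25, DESeq2 adjusted p = 0.0273). Over all loci it called 700 more positive and 476 more negative. GH3.6 had 23.7, 18.2 and 20.1 CPM at +S and 28.7, 24.6 and 23.9 at -S in Col-0, a difference of 0.31 ± 0.104 that was not called, against the fall in eil3 eil1, and the interaction was -0.73 ± 0.148 (edgeR adjusted p = 0.00455). GH3.1 had 4.94, 5.94 and 5.95 CPM at +S and 3.51, 5.54 and 4.35 at -S in eil3 eil1, an interaction of -0.85 ± 0.229 (edgeR adjusted p = 0.0369). IAA1 had an interaction of -0.69 ± 0.184 (edgeR adjusted p = 0.0353), from 6.96, 7.52 and 9.65 and 8.50, 9.63 and 9.56 CPM in Col-0. GH3.6 kept its call without each library, whereas GH3.1 and IAA1 lost theirs without 8 of the 12 libraries each, and 1 member was left without Col-0 -S library 3, Col-0 +S library 2, eil3 eil1 -S library 1 or eil3 eil1 +S library 2 or 3. For eil1 no member was called by edgeR or DESeq2, where 0.383% of all loci were called by edgeR, and 4 had an unadjusted p under 0.05. For eil3 no member was called by edgeR, where 0.943% of all loci were, and 4 had an unadjusted p under 0.05. DESeq2 called 1 member, GH3.1, and over all loci it called 206 more positive and 187 more negative.

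**Figure D5:**
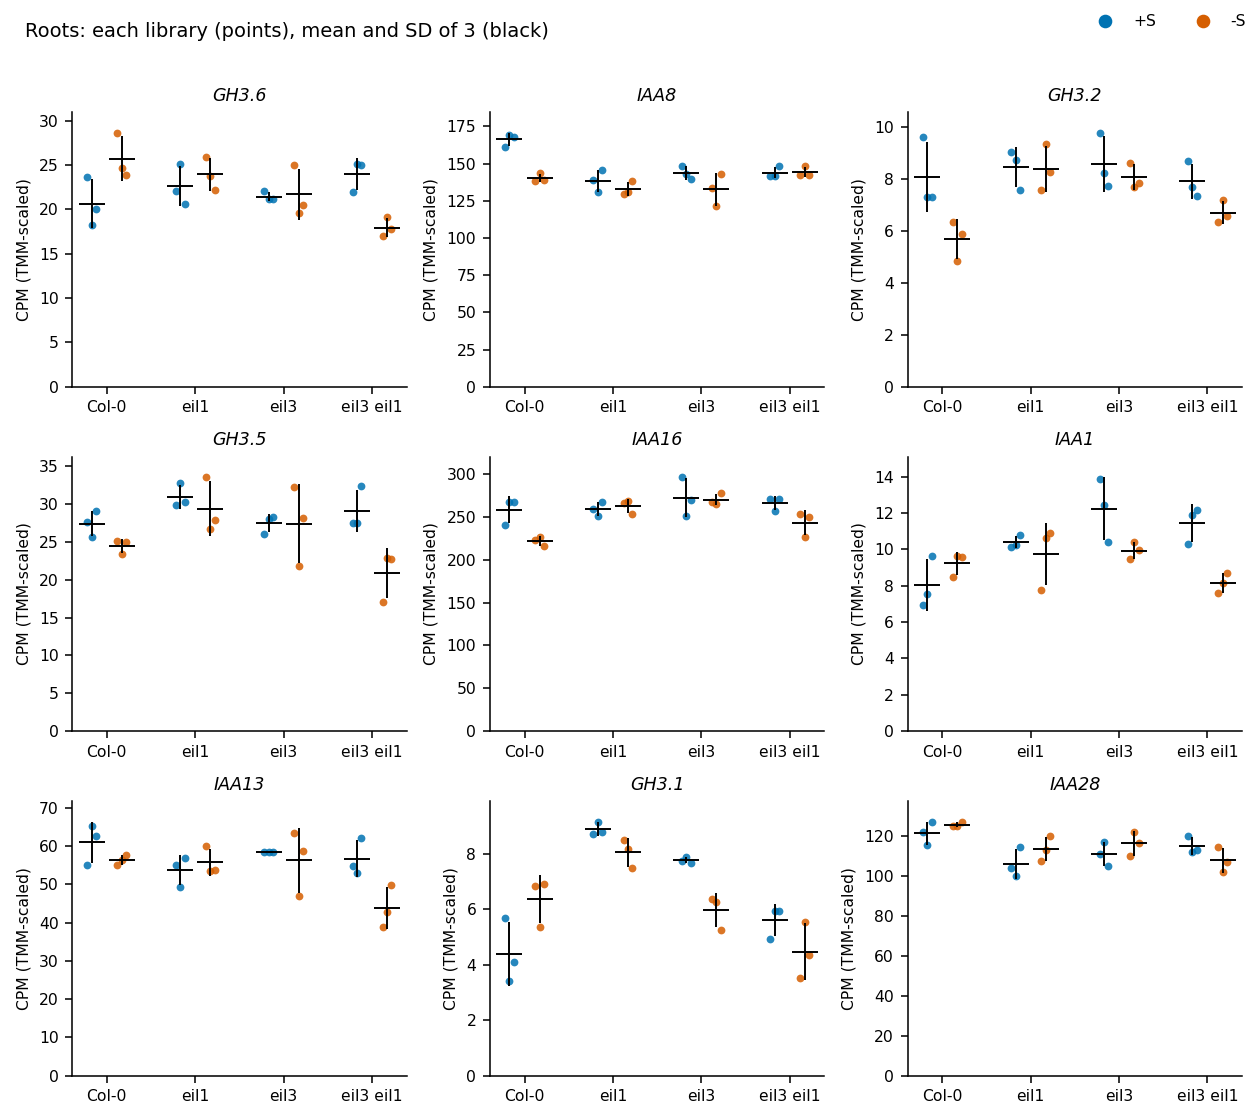
CPM in each root library at +S (blue) and -S (orange) for 9 genes, on linear axes from 0, with the mean and SD of 3 in black. GH3.6 is above +S at -S in Col-0 and below it in eil3 eil1, and GH3.1 is higher at +S in eil1 and eil3 than in Col-0.

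Between genotypes the root levels differed for few members. At +S GH3.1 was higher in eil1 (8.71, 9.16 and 8.80 CPM, 1.01 ± 0.160, edgeR adjusted p = 0.00275) and in eil3 (7.72, 7.89 and 7.67 CPM, 0.82 ± 0.161, edgeR adjusted p = 0.00913) than in Col-0, all 6 libraries being above the 3 of Col-0. With IAA8 lower in eil1 (-0.26 ± 0.0557) and IAA1 higher in eil3 (0.61 ± 0.130), 2 members were called in each line, where 1.24% and 2.19% of all loci were. In eil1-labelled +S library 1, whose green-tissue markers summed to 1910 CPM against 578 and 756 in the other 2, GH3.1 did not stand apart, and its call remained without that library. The shoot-biased IAA29 did, with 1.98, 0.721 and 0.448 CPM in the 3 eil1 libraries. At +S in eil3 eil1 no member was called by edgeR, where 0.879% of all loci were, and 8 had an unadjusted p under 0.05. DESeq2 called 2 members (IAA1 higher, IAA8 lower), and over all loci it called 229 higher and 222 lower.

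At -S IAA16 and GH3.2 were higher than Col-0 in eil1-labelled roots (0.24 ± 0.0615 and 0.56 ± 0.130) and in eil3-labelled roots (0.28 ± 0.0615 and 0.50 ± 0.130), where 2.51% and 6.65% of all loci were called. Both comparisons rest on the same 3 Col-0 -S libraries. In eil3 eil1-labelled roots GH3.6 (-0.52 ± 0.105), GH3.1 (-0.51 ± 0.161), IAA13 (-0.36 ± 0.0985) and IAA28 (-0.22 ± 0.0626) were lower than Col-0, where 12.1% of all loci were called. Of these root calls GH3.1 in eil1 at +S, IAA16 in eil3 at -S and GH3.6 in eil3 eil1 at -S were kept without each single library, and each of the others was lost without at least 1. The eil3 +S calls fell to 0 without Col-0 +S library 2 and to 1 without Col-0 +S library 1 or eil3 +S library 1. The eil1 +S calls fell to 1 without Col-0 +S library 2 or 3 or eil1 +S library 1 or 2. At -S the calls in eil1 fell to 0 without Col-0 library 2 or 3 or eil1 library 2 and to 1 without library 1 of either, those in eil3 to 1 without Col-0 library 3 or eil3 library 1, and those in eil3 eil1 to 1 without Col-0 library 3 and to 2 without Col-0 library 1 or 2 or eil3 eil1 library 1 or 3.

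IAA28 (AT5G25890, chr5:9033204-9035140 on the plus strand), a repressor that acts in the specification of lateral root founder cells, was mainly a root transcript. It had 100.1 to 127 CPM in the 24 root libraries and 5.94 to 12.8 CPM in the 24 shoot libraries. In Col-0 roots it had 122, 116 and 127 CPM at +S and 125, 125 and 127 at -S, and no root response was called. In Col-0 shoots it had 6.87, 7.56 and 8.25 CPM at +S and 9.24, 9.05 and 12.8 at -S, a rise of 0.46 ± 0.147 (edgeR adjusted p = 0.0192) that was lost without -S library 3 or +S library 1. In eil3 eil1 shoots it had 6.85, 6.75 and 6.38 CPM at +S and 10.2, 9.86 and 10.1 at -S, without overlap (0.60 ± 0.147, edgeR adjusted p = 0.00148). At -S the levels in eil3 eil1 roots were 115, 102 and 107 CPM, all below the 3 Col-0 values, with a difference of -0.22 ± 0.0626 (edgeR adjusted p = 0.0224) that passed only with all 3 Col-0 libraries and with eil3 eil1 libraries 2 and 3 in the fit.

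The response of roots differed from that of shoots in Col-0 for 5 of 33 members, 3 more positive in roots and 2 less, where 13.2% of all loci were called. IAA7 (0.67 ± 0.121), IAA8 (0.35 ± 0.102) and IAA14 (0.80 ± 0.199) fell in shoots, whereas in roots IAA8 fell by less (-0.24 ± 0.0557) and IAA7 (0.08 ± 0.121) and IAA14 (0.13 ± 0.111) were not called, and IAA26 (-0.61 ± 0.154) and GH3.5 (-0.72 ± 0.12) rose in shoots and were not called in roots. IAA7 and GH3.5 kept their calls in each alternative, IAA8 lost its call without 10 of the 12 libraries, IAA26 without 5 and IAA14 without 3. With total-count scaling, which moved the median of all loci by -0.109, 2 were more positive and 4 less. The count was 10 without Col-0 +S shoot library 1, 3 without -S root library 1 or -S shoot library 3, and 2 without -S root library 3 or +S root library 2.

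The rest of the auxin pathway was followed through lists of genes by role. In eil3 eil1-labelled shoots at -S 8 of 15 ARF genes fell and none rose, with the smallest p-values for ARF18 (-1.42 ± 0.111), ARF11 (-0.75 ± 0.130) and ARF3 (-0.41 ± 0.0778). Of 10 genes of auxin synthesis tested 8 fell and 1 rose, led by YUC9 (-3.55 ± 0.304), TAR2 (-1.69 ± 0.153) and YUC8 (-1.48 ± 0.156), flavin monooxygenases and an aminotransferase of the main route to auxin. Of 14 transport genes 10 fell and 2 rose, led by the influx carrier LAX2 (-1.48 ± 0.0934), the efflux carrier PIN4 (-1.15 ± 0.0839) and ABCB4, which rose (3.65 ± 0.272). Of 6 receptor genes AFB1 fell (-0.60 ± 0.0847) and AFB2 rose (0.25 ± 0.0487). Of 7 other genes that inactivate or release auxin 3 rose and 2 fell, led by AT1G14130, which rose (2.67 ± 0.201), and IAMT1, which fell (-2.32 ± 0.274). The median over the list was -1.46 for synthesis, -0.95 for transport and -0.34 for ARFs, beside 0.02 over all loci, of which 60.8% were called.

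In Col-0 shoots, where 34.9% of all loci were called, the same lists gave 5 ARF genes that rose and 1 that fell of 15, 1 synthesis gene that rose and 2 that fell of 10, 1 transport gene that rose and 3 that fell of 14, 5 genes of inactivation and release that rose of 7, and 1 receptor gene, TIR1 (-0.35 ± 0.0561), that fell of 6. Of 4 LBD genes, targets of ARFs in lateral root formation, LBD16 was the 1 tested in shoots and it rose in Col-0 (1.95 ± 0.642). That rise rests on very few counts. All 4 LBD genes together summed to 0.127 to 0.481 CPM in Col-0 shoot libraries at +S and 0.405 to 0.640 at -S. ABCB4 rose in Col-0 too (1.80 ± 0.257), as did AT1G14130 (0.95 ± 0.196). Tested as interactions between eil3 eil1 and Col-0, where 36.9% of all loci were called, 6 of 15 ARF genes, 6 of 10 synthesis genes and 8 of 14 transport genes were more negative in eil3 eil1, and 0, 1 and 2 were more positive. At +S, where 7.54% of all loci were called, eil3 eil1-labelled shoots had YUC8 (0.91 ± 0.153) and YUC2 (0.62 ± 0.172) above Col-0 and TAA1 (-0.98 ± 0.123), an aminotransferase of the same route, below it. Of the 14 transport genes 4 were higher there, with PIN3 (0.80 ± 0.118) leading, and of the 15 ARF genes 3 were higher. In the response of eil3 eil1 roots, where 3.89% of all loci were called, 4 ARF genes fell and 1 rose of 15, 1 synthesis gene fell of 8, and 2 transport genes fell and 1 rose of 14.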

How the data were processed

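RNA was sequenced from 48 libraries in 16 groups of 3. Libraries were made with a stranded mRNA kit per the labels' protocols, and whether counting used the strand is not given in the sources used here. Reads were handled with Trimmomatic 0.36, FastQC and kallisto 0.43.1 on TAIR10, per the submitters' processing notes. The deposited estimated counts per locus (7.79% of them not whole) were rounded to whole numbers. The deposited TPM values, in 48 columns of per-sample values, were not used. TPM was computed from the rounded counts and the deposited effective lengths, which departs from the planned use of deposited TPM. Target lengths lay closer to the gene span with introns for 74% of 21653 multi-exon loci, so TPM understates genes with long introns.

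edgeR 4.0.16 (R 4.3.3) with TMM scaling, filterByExpr and the quasi-likelihood F test was fitted to 24 shoot libraries (21697 loci tested), 24 root libraries (21954) and the 12 Col-0 libraries for organ comparisons (22301). Adjusted p-values are Benjamini-Hochberg values over all loci in each of 28 comparisons, and SEs are the log2 fold change over the square root of F, an approximation. Totals were 26615731 to 38269932 counts per library. The common coefficient of variation between replicates, as edgeR estimated it, was 0.129 in the shoot fit, 0.101 in the root fit and 0.118 in the Col-0 fit. Counts in the shoot tables were tied to groups but not to single labelled samples, so library numbers in shoots are column numbers. Replicate pairs had equal counts at no more than 2.0% of loci. On simulated counts, changes of 1.5, 2 and 4 fold were recovered for 51.52%, 86.57% and 100% of changed loci in the Col-0 shoot response, and for 63.08%, 94.03% and 98.46% in the Col-0 root response. The simulation gave all loci the same spread and changed 198 and 197 tested loci, with 4 and 7 false calls. In the data 7570 and 1982 loci were called and spreads differ between loci, so these shares are not the power of the tests above.

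Members, gene lists and the choice of tests were made with earlier results of these data known. All 37 members could be named. Values per library were given for IAA28 and, in each organ, for up to 8 members of at least 5 CPM with the smallest adjusted p over responses and interactions. From each list of receptors, ARFs, synthesis, transport, inactivation and LBD genes, up to 3 called genes with the smallest adjusted p were named. The alternatives tried were DESeq2 1.42.0, edgeR with RLE size factors or without the filter on low counts, a replicate block in roots, each library left out in turn and, added after seeing the data, scaling by total counts. Promoters, coordinates and overlaps come from the TAIR10.1 RefSeq reference, whose locus identifiers match those of the files. Tables and figures were made with matplotlib 3.10.9 and pandas 2.3.3 in Python 3.11.15.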

Additional observations from a re-analysis of the deposited data

Results flagged for a closer look

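The responses to low sulfate of eil3 eil1-labelled and Col-0 shoots differed, by edgeR's test of the difference itself, for 19 members. The log2 differences (eil3 eil1 minus Col-0) were -3.99 for IAA29, -3.80 for IAA20, -3.27 for IAA6, -3.16 for IAA19, -2.12 for IAA30 and -1.93 for IAA5. They were -1.24 for IAA2, -1.19 for GH3.5, -1.15 for GH3.6, -1.07 for IAA1, -0.93 for IAA3, -0.72 for IAA4 and -0.72 for GH3.9. They were -0.62 for IAA27, -0.55 for IAA13, -0.47 for IAA14, -0.42 for IAA8, -0.40 for IAA7 and 0.51 for IAA18. The value of IAA20 rests on 0 to 24 counts per library.

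In roots the same test found differences of -0.85 for GH3.1, -0.73 for GH3.6 and -0.69 for IAA1. The responses of Col-0 roots and shoots differed (root minus shoot) by 0.80 for IAA14, 0.67 for IAA7, 0.35 for IAA8, -0.61 for IAA26 and -0.72 for GH3.5. What these differences go with beyond the values given in the report was not tested.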

How the results depend on the processing

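With DESeq2 the number of called members was 1 and not 0 for the eil3 interaction in shoots and in roots, 3 and not 0 for eil1 against Col-0 in shoots at +S, 3 and not 1 at -S, 4 and not 2 for eil1 and for eil3 in roots at +S, and 2 and not 0 for eil3 eil1 in roots at +S. In each of these comparisons DESeq2 also called more of all loci than edgeR did, both higher and lower. With total-count scaling the number of called members was 1 for each eil3 interaction and 1 and not 2 for eil1 in roots at -S, and with no count filter 1 for eil1 in shoots at +S. In the organ comparison total-count scaling gave 0.0325 for IAA4, 0.0367 for IAA11, 0.176 for IAA12, 0.0658 for IAA14 and 0.0319 for IAA16, all below 0 with TMM; that scaling moves all loci by its construction. The other causes were not tested.

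Without 1 library, called members in responses were 9 to 12 (Col-0), 7 to 8 (eil1), 8 to 11 (eil3) and 23 to 24 (eil3 eil1) in shoots, and 2 to 5, 0 to 0, 0 to 0 and 0 to 3 in roots. For interactions of eil1, eil3 and eil3 eil1 they were 0 to 0, 0 to 1 and 18 to 19 in shoots and 0 to 0, 0 to 1 and 1 to 3 in roots. Against Col-0 they were 0 to 0, 7 to 9 and 12 to 15 in shoots at +S, 0 to 1, 7 to 10 and 14 to 17 at -S, 1 to 2, 0 to 2 and 0 to 1 in roots at +S, and 0 to 2, 1 to 3 and 1 to 3 at -S. For organs they were 31 to 32, and 2 to 10 for the organ difference in response.

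In roots, where columns carry the labels' replicate numbers, 37 of 84 same-number pairs had correlated deviations over 0.1 (median 0.0366, lowest -0.492). The median for pairs of other numbers was -0.0273, and 16 of 24 libraries correlated best with their own number, a hint from the data and not the design. The main fits did not take the numbers to pair samples, and these values do not exclude a structure by number. With a replicate block GH3.1 lost its calls in the Col-0 response and in eil3 eil1 against Col-0 at -S, 1 member and not 0 was called in eil3 eil1 at +S, and 3 and not 2 in eil3 at +S. No paired analysis was possible in shoots or between organs because the shoot columns carry no labelled replicate number. Members under a few counts, such as IAA20 and IAA34, are limited by depth.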
